A study of Mus musculus with 24 samples.

Results

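The p53 target genes described here are 10 genes that the tumour suppressor p53 is known to switch on: Mdm2, Bax, Ccng1, Bbc3, Pmaip1, Sesn2, Gadd45a, Trp53inp1, Phlda3 and Perp. They were found by gene name among the gene probes of 24 two-colour Agilent mouse arrays, where 14 of 41174 probes carried these names and so 10 of 27962 gene names. Of the 14 probes, 14 passed the filter on dim signal, and each was well above background in both channels on all 24 arrays. Thymus RNA was compared between 4 groups of 15-week-old C57BL/6 mice, 6 mice per group with 3 females and 3 males in each. Wild type mice carried neither deletion. The p27 knockout lacked Cdkn1b, whose product p27Kip1 inhibits the cyclin-dependent kinases, the stathmin knockout lacked Stmn1, whose product takes microtubules apart, and the double knockout lacked both genes. The study is titled as a genetic dissection of how these proteins control proliferation in the animal. The thymus carried Cy5 on every array, against one Cy3 pool of fibroblast RNA from all genotypes, so each log2 ratio below is a thymus level relative to fibroblasts. The deleted exons and the sex of each mouse are not given in the sources used here.

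p53 is a transcription factor that is kept at low levels by the ubiquitin ligase Mdm2 and accumulates after DNA damage and other stresses. It then raises genes that halt the cell cycle, repair DNA, limit oxidation or start programmed cell death, and also Mdm2 itself, which closes a feedback loop. Thymocytes are a classical setting for this pathway, because irradiated thymocytes die in a p53-dependent way. No stress was applied to these mice as far as the labels say.

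Among the arrays, p27 knockout replicates 6 and 5 stood apart. The 99th percentile of their Cy5 intensity was 19.4 and 50.7 kilounits, against 56.3 to 339.8 on the other 22 arrays, and their mean correlation with the other arrays was 0.210 and 0.558, against 0.770 to 0.859. Markers of double-positive thymocytes, the main cells of the thymus, had a median log2 ratio of 0.33 in p27 knockout replicate 6 and 5.05 to 7.68 on the other 23 arrays, over 10 of 10 markers. The marker levels of replicate 6 go against its label as thymus, and every p27 knockout value that includes this array carries that doubt. Replicate 5 had thymocyte markers at 7.60. Fibroblast markers (7 of 7) had medians of -1.82 and -1.97 in these 2 mice, against -4.14 to -2.22 in the rest. Cdkn1b (probe A_51_P146126) read 1.21 to 2.30 in the mice that keep it and -1.41 to 0.98 in those that lack it, and Stmn1 (probe A_52_P319161) 0.79 to 3.34 and -3.80 to -1.87. Of the other probes of the deleted genes, 1 of 3 separated the groups. Cdkn1b probe A_52_P673863 overlapped between all groups, with -0.96 to -0.19 in wild type and -1.18 to 0.18 in the double knockout, whereas A_51_P169173 did not, with -0.21 to 1.44 in mice that keep the gene and -1.03 to -0.25 in those that lack it. Stmn1 probe A_51_P495641 read -0.76 in 1 p27 knockout mouse, below the stathmin and double knockouts at 1.22 to 2.87. For the p53 target genes, each comparison that uses the p27 knockout is also given without replicates 5 and 6. The marker comparisons below include both arrays.

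The genes of feedback and cell-cycle control mostly read lower in thymus than in the fibroblast pool, Ccng1 on both probes and Mdm2 more clearly on its brighter one. Mdm2 (chromosome 10), the ligase that degrades p53, had on its brighter probe a lowest, median and highest log2 ratio of -1.09, -0.41 and -0.22 in wild type. The p27 knockout had -1.12, -0.62 and 0.016, the stathmin knockout -0.96, -0.73 and -0.36, and the double knockout -0.84, -0.72 and 0.098. The 4 groups overlapped, and 22 of 24 arrays lay below 0. The dimmer Mdm2 probe, A_51_P201346, lay above 0 on 6 of 24 arrays, among them 3 of 6 wild type mice. Ccng1 (chromosome 11) encodes cyclin G1, which recruits a phosphatase to Mdm2. On its brighter probe, A_52_P612803, wild type spanned -2.77 to -2.29 around a median of -2.59 (n = 5, 1 spot having been left out as an outlier), and the stathmin knockout -2.74 to -2.17 around -2.51. The p27 knockout spanned -3.32 to -2.61 around -2.80, and the double knockout -2.69 to -1.89 around -2.18. Every Ccng1 value lay below 0 on both probes, and the p27 and double knockouts overlapped only between -2.69 and -2.61. In bulk tissue, fewer cells of a type and less RNA per cell cannot be told apart, and since no dyes were swapped the ratio against 0 is open to dye bias and was not tested.

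The genes of cell death differed in sign against the pool. Bax (chromosome 7), which opens the outer mitochondrial membrane, lay below 0 on 23 of 24 arrays, with a wild type mean of -0.78 ± 0.23 (SD, n = 6). The p27 knockout mean was -0.62 ± 0.57, the stathmin knockout mean -0.59 ± 0.34 and the double knockout mean -0.43 ± 0.25. Bbc3 (chromosome 7), which encodes Puma, a neutraliser of Bcl2 proteins, was near the pool in wild type at 0.0028 ± 0.62 and read 0.50 ± 0.57, 0.58 ± 0.35 and 0.46 ± 0.25 in the p27, stathmin and double knockouts. All 6 stathmin knockout and 6 double knockout mice were above 0 for Bbc3, against 2 of 6 wild type mice, and the ranges overlapped. Pmaip1 (chromosome 18), which encodes Noxa, a further BH3-only protein, lay below the pool on 22 of the 23 arrays that measured it. Wild type had a lowest, median and highest value of -2.99, -2.57 and -2.27 (n = 5), and the p27 knockout of -2.19, -2.00 and 0.097. The stathmin knockout had -2.53, -2.06 and -0.79, and the double knockout -2.30, -1.96 and -1.72. All 6 p27 knockout mice were above all 5 wild type mice, and replicates 6 and 5 were the 2 highest, at 0.097 and -0.64.

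Perp (chromosome 10), a membrane protein of desmosomes that also promotes death, was higher in thymus than in the pool on 22 of 23 arrays. Its means in the wild type, p27, stathmin and double knockout mice were 2.65 ± 1.00, 1.91 ± 1.85, 3.00 ± 0.48 and 3.31 ± 0.34 (n = 5 for the last). Trp53inp1 (chromosome 4), a nuclear protein that promotes p53 activity and autophagy, was the second gene with high ratios, at 3.49 ± 0.56, 2.14 ± 2.16, 3.22 ± 0.47 and 3.23 ± 0.31 in the same order on its brighter probe. In both genes p27 knockout replicate 6 was the only mouse below 0, at -1.82 for Perp and -2.19 for Trp53inp1. Without replicates 5 and 6 the p27 knockout means were 2.65 ± 0.36 and 3.17 ± 0.31 (n = 4).

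**Figure D1:**
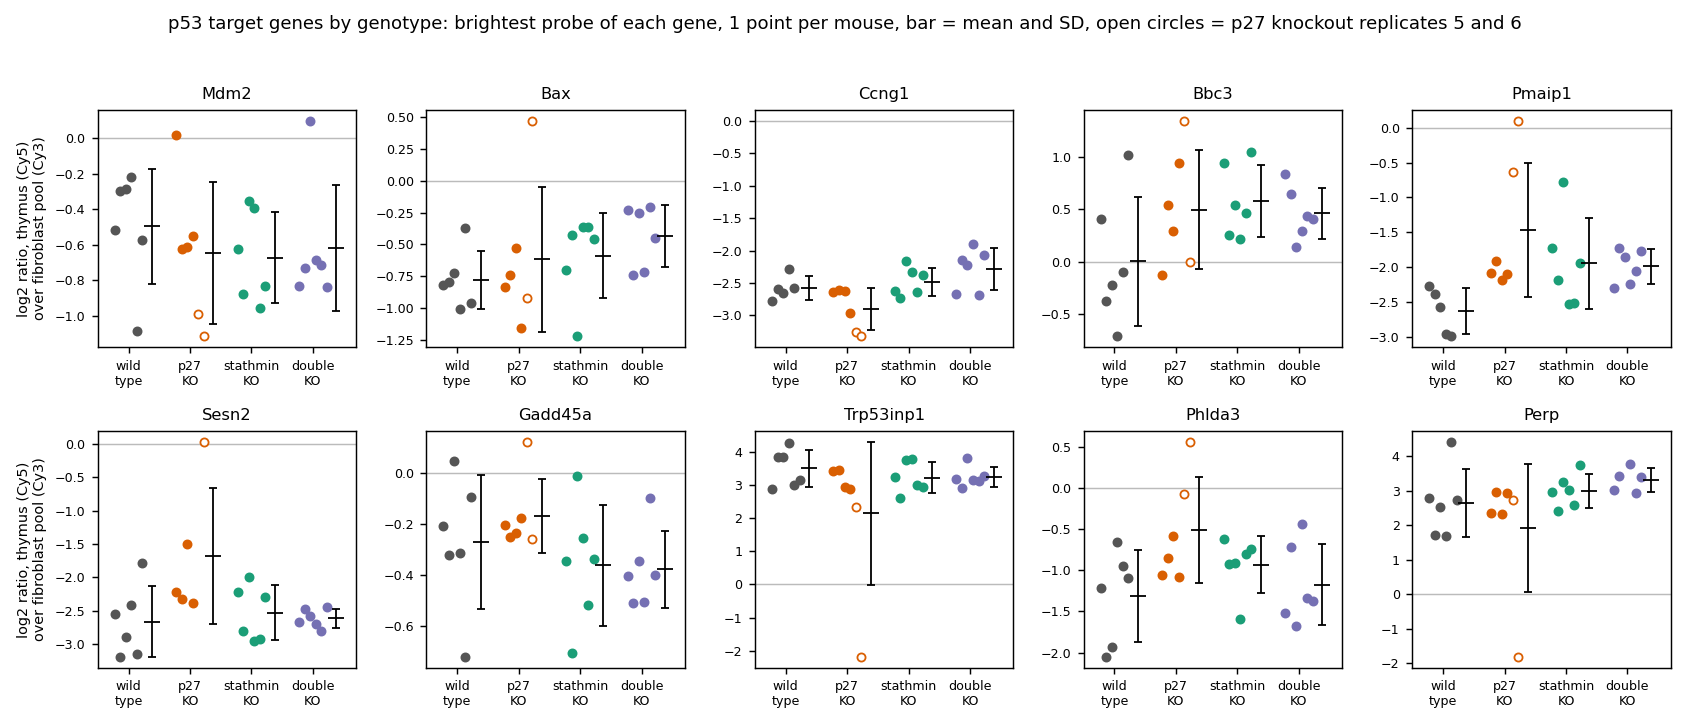
Log2 ratio of thymus over the fibroblast pool (vertical axis) for the brightest probe of each of the 10 genes, by genotype (horizontal axis), with 1 point per mouse, and the mean and SD of each group beside it. Open circles are p27 knockout replicates 5 and 6. Ccng1 and Sesn2 lie near or below -2 in most mice, Perp and Trp53inp1 lie near 3, and the replicate 6 circle lies away from its group for Pmaip1, Sesn2, Trp53inp1 and Perp.

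The remaining genes act in oxidative stress, repair and survival signalling. Gadd45a (chromosome 6), which binds Pcna and takes part in growth arrest and repair, was the gene with the narrowest spread, from -0.72 to 0.12 over all 24 arrays. Its group means lay between -0.38 in the double knockout and -0.17 in the p27 knockout. Phlda3 (chromosome 1), which competes with Akt for membrane lipids and so restrains survival signalling, had means of -1.32 ± 0.56, -0.51 ± 0.65, -0.93 ± 0.34 and -1.18 ± 0.49 in the same order of genotypes. Sesn2 encodes sestrin 2, which lowers mTORC1 signalling and aids the defence against oxidants, and is the gene on which the comparisons below mostly turn.

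Sesn2 was read by 2 probes, both below the pool in most mice. On A_51_P161354 the 6 p27 knockout mice, replicates 1 to 6, read -1.69, -1.68, -0.42, -1.04, 1.32 and 0.43. Wild type had a lowest, median and highest value of -3.07, -1.86 and -0.88, the stathmin knockout of -2.98, -1.96 and -1.30, and the double knockout of -2.87, -2.21 and -1.75. The p27 knockout mice were thus all above the double knockout mice, by a margin as small as the step from -1.75 to -1.69, and they overlapped wild type and the stathmin knockout. On the brighter probe, A_52_P154710, p27 knockout replicates 1, 2, 3, 4 and 6 read -2.22, -2.33, -1.50, -2.39 and 0.032, and the replicate 5 spot had been left out as an outlier. Wild type spanned -3.19 to -1.79, the stathmin knockout -2.95 to -1.99 and the double knockout -2.81 to -2.44, again with no overlap between the p27 and the double knockout.

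The promoters of Sesn2 and Ccng1 are shown because these genes gave all of the called differences. Of the 10 genes, 7 had entries (9 windows) in the RefSeq promoter table of build GRCm38.p6, each from 250 bases before to 50 after the entry's start. The p53 half-site, a ten-letter consensus that reads the same on both strands and was the only motif searched, occurred in 4 of these windows (Mdm2, Bax, Ccng1 and Gadd45a) and in 8.36% of all 32851 windows in the table. A match is a description of the letters only. The sequences run 5′ to 3′ on the minus strand, which is the coding strand of both genes, at chr4:132510407-132510706 for Sesn2 and chr11:40755237-40755536 for Ccng1. Capitals mark the half-site, whose first base in Ccng1 lies at -185 from the start of its promoter entry, and the Sesn2 window holds none.
Sesn2: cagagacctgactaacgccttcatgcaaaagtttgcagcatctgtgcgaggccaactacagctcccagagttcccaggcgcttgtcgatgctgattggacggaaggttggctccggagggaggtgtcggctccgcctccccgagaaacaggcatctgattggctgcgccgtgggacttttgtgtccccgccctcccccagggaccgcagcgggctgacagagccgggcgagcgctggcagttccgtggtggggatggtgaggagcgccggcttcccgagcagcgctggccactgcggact
Ccng1: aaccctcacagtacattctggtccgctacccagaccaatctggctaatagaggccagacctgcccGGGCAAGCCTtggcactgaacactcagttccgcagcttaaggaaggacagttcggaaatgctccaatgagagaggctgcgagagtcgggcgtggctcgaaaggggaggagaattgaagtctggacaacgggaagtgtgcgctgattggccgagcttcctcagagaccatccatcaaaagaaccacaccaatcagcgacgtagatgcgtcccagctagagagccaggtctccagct

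The double knockout was compared with the p27 knockout to ask what loss of stathmin does where p27 is already absent. Of the 14 probes, 3 passed limma's test across all 35185 probes (Benjamini-Hochberg adjusted p under 0.05), where 30% of all probes passed. These were both Sesn2 probes, lower in the double knockout as were 16.8% of all probes, and 1 of 2 Ccng1 probes, higher there as were 13.3%. Sesn2 fell by 1.79 ± 0.46 (SE) on A_51_P161354, 3.45-fold (95% interval -2.74 to -0.84, adjusted p = 0.00892), and was lower on 6 of 6 slides. It fell by 0.93 ± 0.34 on A_52_P154710, 1.91-fold (95% interval -1.64 to -0.22, adjusted p = 0.0449), with lower values on 5 of 5 slides (on the remaining slide a spot had been left out). Non-overlapping groups were found for 2 of the 14 probes, both of Sesn2, and for 12.7% of all probes. Ccng1 rose by 0.62 ± 0.18 on A_52_P612803, 1.54-fold (95% interval 0.24 to 0.99, adjusted p = 0.0161), on 5 of 6 slides. Its other probe, A_51_P161612, had a difference of the opposite sign, from a p27 knockout mean of -2.72 ± 0.66 to a double knockout mean of -3.02 ± 0.23, that did not pass.

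None of these calls held without the 2 arrays that stand apart. In that fit 0 of the 14 probes passed, while 15% of all probes passed, and 2 of the 14 had an unadjusted p under 0.05, against 35.6% of all. The differences kept their sign at -1.09 (adjusted p = 0.0656) and -0.50 (adjusted p = 0.156) for Sesn2 and 0.42 (adjusted p = 0.0868) for Ccng1. The second Ccng1 probe then read 0.11 higher in the double knockout. The brightness of the arrays moved with these ratios. Before scaling, the log2 Cy5 signal of Sesn2 probe A_52_P154710 was 11.4 to 12.6 in the p27 knockout and 12.8 to 13.7 in the double knockout, so the raw signal was lower where the ratio was higher. With array brightness as a covariate none of the 14 probes passed, beside 0.00284% of all probes. The difference of that probe was then 0.14 (adjusted p = 0.861), whereas Sesn2 A_51_P161354 and Ccng1 A_52_P612803 kept their sign at -0.60 and 0.61 (adjusted p = 0.670 and 0.596). The part of brightness in the result was not tested beyond this fit, in which brightness and genotype go together. Markers of other cell types moved as well. In the double against the p27 knockout 4 of 7 fibroblast markers passed, all 4 lower, with 7 of 7 below 0 and a median difference of -0.64, and their level per mouse (the median over the list) had a group median of -2.28 in the p27 knockout, with -1.82 the highest, and lay between -4.14 and -2.74 in the double knockout. Macrophage and adipocyte markers passed for 2 of 5 each, all higher in the double knockout (median differences 0.84 and 0.86). Endothelium (1 of 4), skeletal muscle (1 of 5) and thymic epithelium (1 of 5) also had calls, each higher. Mature T cells, B cells and erythroid cells had 0. For double-positive thymocytes 0 of 10 markers passed. Their level per mouse ran from 0.33 to 7.68 within the p27 knockout, so this count does not show equal thymocyte content. The part of these cells in the Sesn2 and Ccng1 differences was not tested.

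**Figure D2:**
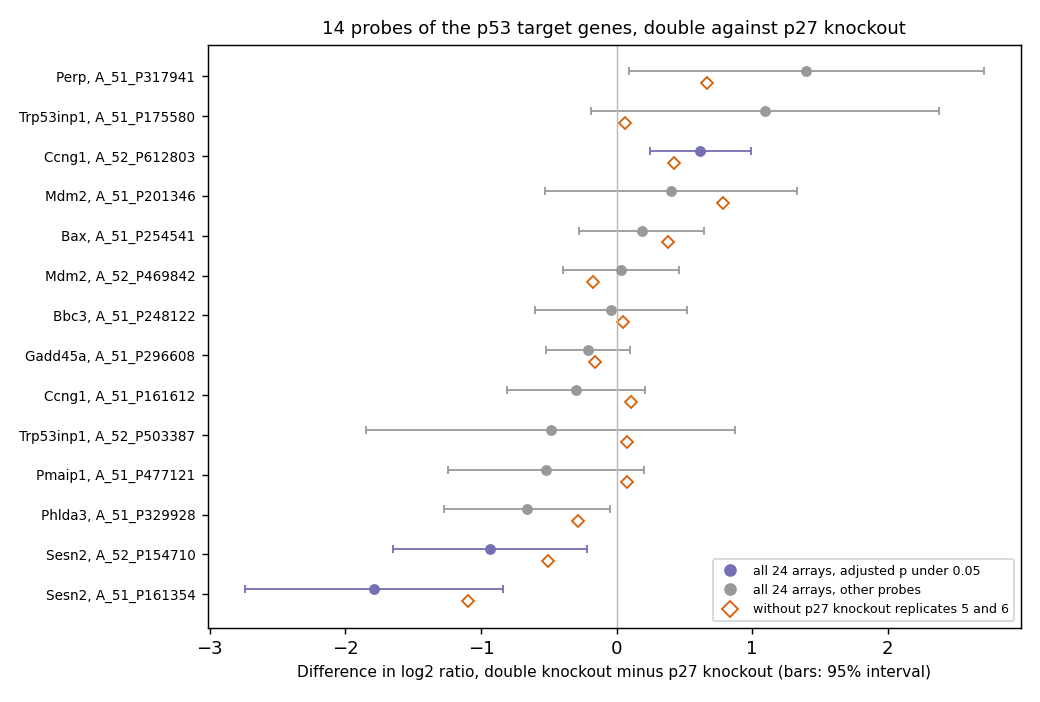
Difference in log2 ratio, double knockout minus p27 knockout (horizontal axis), for the 14 probes (vertical axis), with 95% intervals over all 24 arrays as circles and the values without p27 knockout replicates 5 and 6 as open diamonds. The 3 coloured circles are the probes that passed, at -1.79, -0.93 and 0.62, and their diamonds lie nearer to 0, at -1.09, -0.50 and 0.42.

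**Figure D3:**
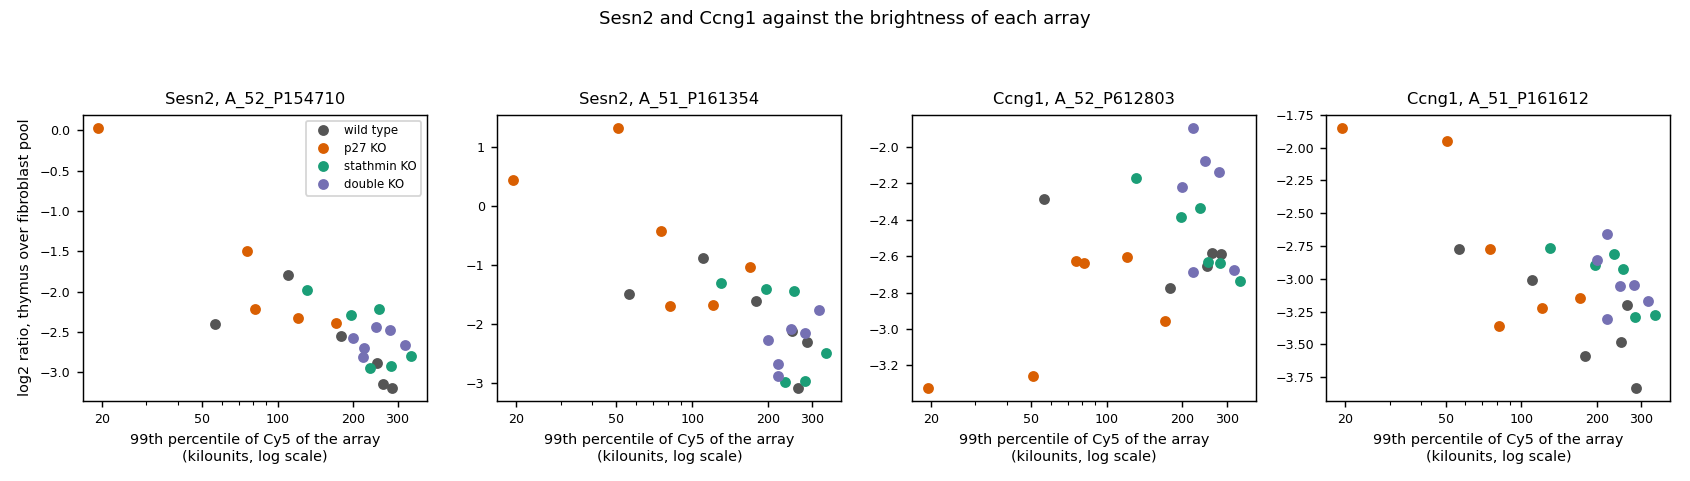
Log2 ratio of both probes of Sesn2 and Ccng1 (vertical axes) against the 99th percentile of Cy5 of each array in kilounits (horizontal axes, log scale), 1 point per mouse, coloured by genotype. The 2 dimmest arrays, p27 knockout replicates 6 and 5 at 19.4 and 50.7, carry, where measured, the highest Sesn2 values and the lowest Ccng1 values on A_52_P612803 but the highest on A_51_P161612.

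The p27 knockout was also compared with the stathmin knockout. Sesn2 probe A_51_P161354 was the only one of the 14 to pass, against 19% of all probes, and was 1.58 ± 0.46 higher in the p27 knockout, 3.00-fold (adjusted p = 0.0241, higher on 6 of 6 slides). Of all probes, 10.7% passed in this direction. Fibroblast markers were higher in the p27 knockout for 3 of 7, and macrophage and adipocyte markers lower for 2 of 5 and 3 of 5. These marker counts include replicates 5 and 6 and stand beside 19% of all probes. The part of these cells in the result was not tested. The other Sesn2 probe was 0.85 ± 0.34 higher (adjusted p = 0.0806), and Ccng1 probe A_52_P612803 differed by -0.42 ± 0.18 (adjusted p = 0.0979). The Sesn2 call was lost without replicates 5 and 6 (0.89, adjusted p = 0.157, where 1.17% of all probes passed). It was also lost without p27 knockout replicate 5 alone (1.22) and without any 1 of stathmin knockout replicates 2, 4 and 5 (1.51, 1.41 and 1.41). The same probe was the only one to pass limma's F test of any difference among the 4 genotypes (adjusted p = 0.0329), which 14% of all probes passed. That call was lost without p27 knockout replicate 3, 5 or 6 or double knockout replicate 4 or 5.

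Against wild type, 0 of the 14 probes passed in any of the 3 knockouts. For the p27 knockout, 0.00568% of all probes passed, and 6 of the 14 had an unadjusted p under 0.05, against 29.3% of all. Pmaip1 read 1.16 ± 0.37 higher (adjusted p = 0.0790, 5 of 5 slides) and was the only probe whose groups did not overlap, as was the case for 0.688% of all probes. The Sesn2 probes read 1.40 ± 0.46 and 0.98 ± 0.34 higher (adjusted p = 0.0806 and 0.0873). Leaving out replicates 5 and 6 gave these 3 differences as 0.56, 0.70 and 0.55 (adjusted p = 0.375, 0.411 and 0.375). Leaving out 1 mouse could also bring calls: 3 of the 14 probes passed without wild type replicate 6 and without p27 knockout replicate 4, 2 without p27 knockout replicate 1 and 1 without replicate 2. In these 4 fits 11.7%, 10.9%, 11.2% and 6.76% of all probes passed, in the same order.

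For the stathmin knockout against wild type, where 0.00284% of all probes passed, Bbc3 had the lowest p. It read 0.58 ± 0.27 higher, on 6 of 6 slides (adjusted p = 1.00), and was the only one of the 14 probes with an unadjusted p under 0.05, against 2.37% of all. Pmaip1 and the second Ccng1 probe followed at 0.69 ± 0.37 and 0.32 ± 0.25. In double knockout mice against wild type, 0.0114% of all probes passed, and 0 of the 14 had an unadjusted p under 0.05, against 4.63% of all. Its lowest p belonged to Pmaip1, Bbc3 and Ccng1 (A_52_P612803), which read 0.64 ± 0.37, 0.46 ± 0.27 and 0.30 ± 0.19 higher (adjusted p = 1.00 for each). The 3 comparisons share the wild type mice. Over the 14 probes the median difference was 0.25, 0.16 and 0.19 for the p27, stathmin and double knockouts, beside 0.074, -0.012 and -0.020 over all probes. With only the brightest probe of each gene these medians were 0.13, 0.16 and 0.22. The p27 medians include replicates 5 and 6, and none is given without them.

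Between the double and the stathmin knockout, which asks what loss of p27 does where stathmin is already absent, 0 of the 14 probes passed and 0 had an unadjusted p under 0.05. Over all probes 0.00568% passed and 1.16% had such a p. The 3 lowest p values belonged to Ccng1 (A_52_P612803), Phlda3 and Bax, at 0.20 ± 0.18, -0.24 ± 0.30 and 0.16 ± 0.22 (adjusted p = 1.00 for each). The intervals still allowed differences of -0.17 to 0.57 for Ccng1, -0.86 to 0.37 for Phlda3 and -0.31 to 0.62 for Bax. The interaction, which asks whether the effects of both losses add up, passed for 0 of the 14 probes and for 0% of all probes. At an unadjusted p under 0.05 it held 4 of the 14, against 18.4% of all: Phlda3 at -1.05 ± 0.42, both Sesn2 probes at -1.60 ± 0.65 and -1.07 ± 0.48, and Pmaip1 at -1.21 ± 0.51 (adjusted p = 0.258 for Phlda3, Pmaip1 and the first Sesn2 probe and 0.259 for the second). No probe of the 14 had such a p (0 of 14) once p27 knockout replicates 5 and 6 were left out, against 9.79% of all probes.

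The 4 genes with 2 probes showed how far a gene's reading depends on the probe. The Sesn2 probes went together, with r = 0.89 over the 23 arrays that measured both and 0.87 without p27 knockout replicates 5 and 6. The Ccng1 probes had r = -0.22 over 23 arrays and 0.62 without these 2, in which A_52_P612803 read lowest of all mice and A_51_P161612 highest. For Trp53inp1 r was -0.13 over 24 arrays and 0.57 without them, and the probes lay at different levels, with overall means of 3.02 and 0.70. The Mdm2 probes had r = 0.015, and 0.15 without the 2 arrays. The dimmer probes ranged from -1.90 to 1.07 for Mdm2, -3.83 to -1.85 for Ccng1 and -0.77 to 3.09 for Trp53inp1 over the 24 arrays. The probe pairs agreed in sign in 4 of the 6 pairwise comparisons for Sesn2, 3 for Mdm2, 3 for Trp53inp1 and 2 for Ccng1. Points in such a correlation share the array, so r is a description.

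**Figure D4:**
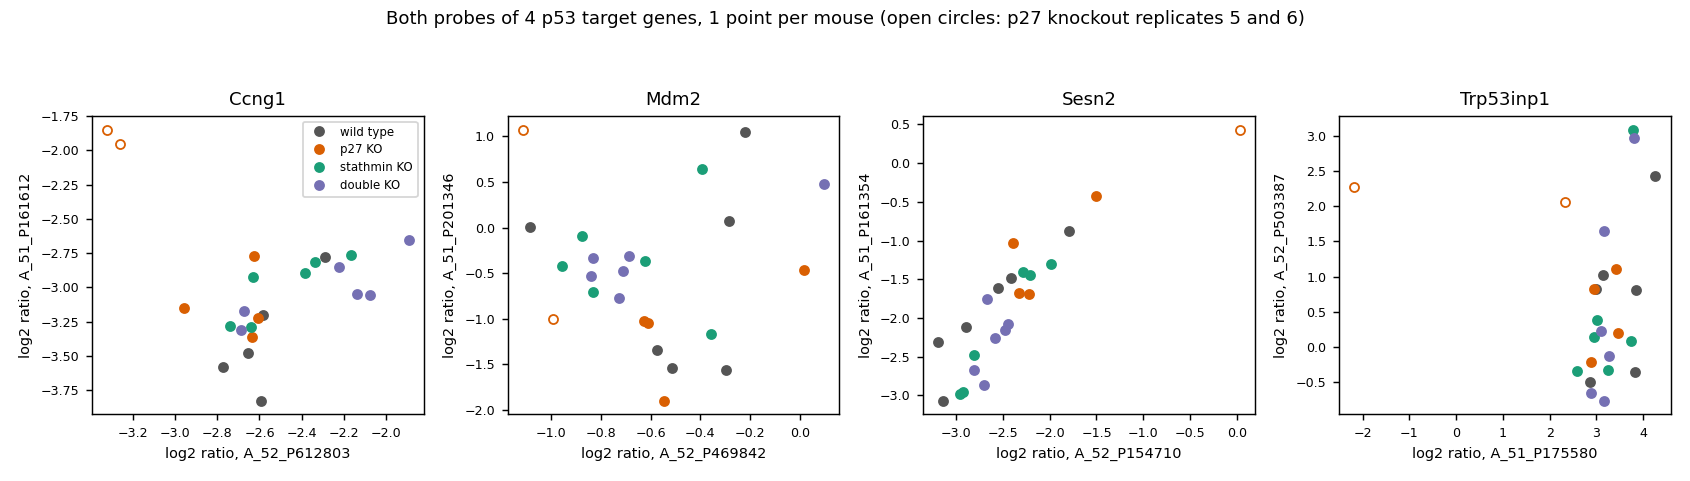
Log2 ratio of the dimmer probe (vertical axis) against that of the brighter probe (horizontal axis) for Ccng1, Mdm2, Sesn2 and Trp53inp1, 1 point per mouse, coloured by genotype, with p27 knockout replicates 5 and 6 as open circles. The Sesn2 points follow one line (r = 0.89), whereas in Ccng1 and Trp53inp1 the open circles lie away from the other mice (r = -0.22 and -0.13).

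The members were also compared with each other over the arrays. Over the 45 pairs of the 10 genes' brighter probes the median r was -0.093, from -0.77 to 0.81, with 7 pairs above 0.5. The median was 0.083, and 4 pairs lay above 0.5, without p27 knockout replicates 5 and 6. No such value is given for pairs of other genes, so whether these are low or usual is not known. The gene most like each member over up to 24 arrays was sought only among genes outside the list, so no member could be named. For Sesn2 it was Cdk18, a cyclin-dependent kinase (r = 0.98), for Trp53inp1 Atl2, a shaper of the endoplasmic reticulum (r = 0.99), and for Perp Pkp1, a desmosomal plakophilin (r = 0.93). For Bax it was Tpgs2 (r = 0.92), for Phlda3 Aplp2 (0.92), for Pmaip1 the metal transporter Slc39a14 (0.90), for Bbc3 Knop1 (0.90), for Ccng1 Acsl3, an acyl-CoA synthetase (0.89), for Mdm2 the transcription factor Dmtf1 (0.88) and for Gadd45a Slc25a14 (0.75). Without the 2 arrays the value was lower for 9 of these 10 pairs and higher for Mdm2 (0.90). It was then 0.95 for Sesn2, 0.91 for Trp53inp1, 0.89 for Perp, 0.88 for Bbc3, 0.87 for Phlda3, 0.86 for Bax, 0.80 for Ccng1, 0.76 for Pmaip1 and 0.69 for Gadd45a.

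The rest of the pathway was read from 51 further genes, of which 50 passed the filter (Atr did not). Each of these genes, like each marker gene, was read only from its kept probe brightest in Cy5. Any other probes of these genes are not given. In the double against the p27 knockout 14 of the 50 passed, 5 higher and 9 lower, a share near the 30% of all probes that passed. Among the regulators of p53, 3 of 15 rose and 3 fell, among other targets of arrest and signalling 0 of 10 rose and 3 fell, among those of cell death 0 of 13 rose and 2 fell, and among those of repair and metabolism 2 of 12 rose and 1 fell. Trp53 itself fell by 2.36 ± 0.49 (adjusted p = 0.00392), from 2.69 ± 1.27 in the p27 knockout to 0.33 ± 0.17 in the double knockout. Its relative Trp73 fell by 2.04 ± 0.47, Gdf15, a stress cytokine, by 1.85 ± 0.44, Cdkn2a, whose Arf product inhibits Mdm2, by 1.84 ± 0.44, and Fdxr, a mitochondrial reductase, by 1.37 ± 0.35 (adjusted p = 0.00547, 0.00590, 0.00664 and 0.00896). When p27 knockout replicates 5 and 6 were left out, 7 of the 50 passed, all 7 lower, beside 15% of all probes in either direction. These 5 were among them (Trp53 -1.72, adjusted p = 0.0230). The share of all probes that passed lower in that fit is not given, so the direction has no background beside it. With array brightness as a covariate, given above for the members, almost no probe of the array passed in this comparison. These 5 genes are not given in the brightness fit. The cell type markers that passed in this comparison are given above with Sesn2, and their part in the pathway's differences was not tested. Without replicates 5 and 6 the 10 members had 0 calls in this comparison, and Sesn2 was the nearest.

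In the p27 against the stathmin knockout 10 of the 50 passed, 8 higher and 2 lower in the p27 knockout, beside 19% of all probes. Trp53 was 2.14 ± 0.49 higher (adjusted p = 0.0113), Trp73 1.88 ± 0.47, Gdf15 1.68 ± 0.44, Cdkn1a, the p21 inhibitor of cyclin-dependent kinases, 1.38 ± 0.34, and the kinase Plk3 0.96 ± 0.23 (adjusted p = 0.0146, 0.0162, 0.0136 and 0.0132). Without replicates 5 and 6, 0 of the 50 passed, beside 1.17% of all probes. Any difference among the genotypes was called for 7 of the 50, as for 14% of all probes, and without these 2 arrays for 0 of the 50 and 0.387% of all. In the 5 other tests 0 of the 50 passed, with or without replicates 5 and 6. The differences named next are from all 24 arrays and are not given without those 2. The 2 lowest p values belonged to Gdf15 and Cdkn2a in the p27 knockout against wild type (1.50 and 1.47 higher, adjusted p = 0.0790 for each) and in the interaction (-1.68 and -1.70, adjusted p = 0.258 for each). They belonged to Aifm2 and Btg2 in the stathmin knockout (1.28 and -0.35), to Zmat3 and Trp73 in the double knockout against wild type (0.35 and -0.83), and to Aifm2 and Trp53bp1 in the double against the stathmin knockout (-1.05 and 0.31), each with adjusted p = 1.00.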

How the data were processed

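Scanner files of the 24 arrays were deposited. Per the file headers, spot and background intensity of both channels came from Agilent Feature Extraction 9.1.3.1, and the deposited log10 ratios had been dye-normalized there. A deposited log2 table of all arrays also came from the authors, by a method not given in the sources used here. Its columns (medians 8.55 to 10.5) had r of at least 0.99991 with spot brightness (log2, averaged over Cy5 and Cy3) but no more than 0.0432 with the log2 ratio. Its centring stays unknown, and it was used only as an alternative.

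From the intensities, limma 3.58.1 in R 4.3.3 corrected the background (normexp, offset 50) and normalized each array by loess with control spots at weight 0. Outlier spots were left out (68 per array on average) and spots of 1 probe averaged. Probes stayed in if Cy5 stood well above background on 6 or more of the 24 arrays. Each of 35185 probes was fitted with genotype as the only term, and adjusted p values are limma's (Benjamini-Hochberg, threshold 0.05). The same code was tested on simulated data. Every one of 6 slides held all 4 genotypes, each always at its own position, and so genotype cannot be told apart from position. No pair of arrays was identical (0 pairs), and the number of mice limits the precision. Gene symbols and coordinates are those of GRCm38.p6, through accessions for 13 of the 14 probes. All 10 genes and each of their probes are named. Differences are quoted for every probe that passed and otherwise for the 3 lowest p of a comparison, and of pathway genes for up to 5 that passed or else the 2 lowest p. The genes, lists and tests were chosen with earlier results of these data known.

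The alternatives were no background correction, the deposited log ratios centred on the median (as log2), Cy5 alone, the deposited table, no filter or all 24 arrays above background, scaling between arrays, 1 probe per gene, replicate number or slide as a block, array weights, array brightness as a covariate, only the groups compared, no p27 knockout replicates 5 and 6, and each array left out in turn. Replicate numbers did not pair the mice.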

Additional observations from a re-analysis of the deposited data

Results flagged for a closer look

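In 7 of 56 groups of mice (14 probes in 4 genotypes) the highest or lowest mouse lay far from the other mice of its genotype, where chance would mark about 1 in 20. p27 knockout replicate 6 lay lowest for Trp53inp1 (A_51_P175580) at -2.19, with the next mouse at 2.32, and for Perp at -1.82, with the next at 2.31. p27 knockout replicate 5 lay highest for Gadd45a at 0.12, with the next at -0.18. Double knockout replicate 3 lay highest on both Mdm2 probes, at 0.098 (A_52_P469842, next -0.69) and 0.47 (A_51_P201346, next -0.31). Stathmin knockout replicate 4 lay highest for Trp53inp1 on A_52_P503387 at 3.09 (next 0.39) and lowest for Phlda3 at -1.60 (next -0.92).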

How the results depend on the processing

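Among the 14 probes, no alternative changed the count of 0 in the stathmin or double knockout against wild type, the double against the stathmin knockout or the interaction. For the double against the p27 knockout (3 called), 12 were called in the deposited table (52% of all probes), 1 with scaling between arrays (27%) or only the groups compared (16.5%), 0 with array brightness as a covariate (0.00284%) or without p27 knockout replicates 5 and 6 (15%), and 2 to 3 with 1 array left out. For the p27 against the stathmin knockout (1 called), 12 were called in the deposited table (54.4%), 3 with scaling (26.2%), 2 with Cy5 alone (21.8%) or array weights (37.6%), 0 with 1 probe per gene (18.4%), brightness (0.00284%), only the groups compared (0.148%) or without replicates 5 and 6 (1.17%), and 0 to 2 with 1 array left out. For any difference (1 called), 10 were called in the deposited table (44.9%), 2 with Cy5 alone (13.3%) or slide as a block (17%), 0 with 1 probe per gene (13.1%), brightness (0.0256%) or without replicates 5 and 6 (0.387%), and 0 to 1 with 1 array left out. For the p27 knockout against wild type (0 called), 2 were called in the deposited table (26.3%), 1 with array weights (12.6%) and 0 to 3 with 1 array left out. For fits with 1 array left out, shares of all probes are given only for those named above against wild type. The reported fit had 30% for the double against the p27 knockout, 19% for the p27 against the stathmin knockout and 14% for any difference.

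The deposited table, which follows brightness, turned the sign of Pmaip1 (-0.26) and both Sesn2 probes (-0.12 and -0.21) in the p27 knockout against wild type, of Sesn2 in the double against the p27 knockout (0.29 and 0.53) and the p27 against the stathmin knockout (-0.25 and -0.49), and of Phlda3, Sesn2 and Pmaip1 in the interaction (0.30, 0.15 and 0.35). Scaling turned Ccng1 in the p27 against the stathmin knockout (0.51), and brightness as a covariate turned Sesn2 A_52_P154710 there (-0.16) and in the double against the p27 knockout (0.14). The cause was not tested. In the double against the p27 knockout, Sesn2 A_52_P154710 lost its call in 13 of 24 leave-one-out fits, while Sesn2 A_51_P161354 and Ccng1 kept theirs in all 24. Over the 14 other alternatives Sesn2 A_52_P154710 lost its call with the same sign in 5 and turned sign in 2. Ccng1 A_52_P612803 lost its call in 4 of 14. Sesn2 A_51_P161354 lost its call with the same sign in 2 of 13 and turned sign in 1. With 1 probe per gene, Sesn2 A_51_P161354 is not tested. Replicate numbers did not pair the mice (mean r of the deviations 0.031, 14 of 36 pairs over 0.1, 6 of 24 mice closest to their own number). Mice on 1 slide had a mean r of 0.124, against -0.023 between slides (21 of 36 pairs over 0.1, 9 of 24 mice closest to their own slide), and the reported fit has no slide term. With slide as a block 3 and 1 of the 14 probes were called in the double and the stathmin knockout against the p27 knockout (33.4% and 23% of all probes). With the replicate block 3 and 1 of the 14 probes were called in the double and the stathmin knockout against the p27 knockout, and no other call changed. Shares of all probes under the replicate block are not given, and were 30% and 19% in the reported fit.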
